A study of Mus musculus with 12 samples.

Results

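The small RNAs described here are reads that the deposited tables match to a messenger RNA (mRNA) and that carry the outward features of a PIWI-interacting RNA (piRNA): a length of 24 to 32 nt and a T (U in the RNA) as the first base. They were taken from all 10 small RNA libraries of the series by the class of the matched entry, after reads listed on the minus strand had been turned back to the strand that was sequenced. They comprise 404836 distinct sequences of the 2439644 distinct sequences listed in all classes, and they lie in 40252 mRNA entries. Each library holds 18 to 40 nt RNA of C57BL/6 mice, from testis, caput, corpus or cauda epididymidis at 13 months or from caput at 2 months, either wild type (WT) or Gpx5-/- (KO). Gpx5 encodes a glutathione peroxidase secreted by the epididymis, and no agent was given to either genotype. The 13-month tissue came from 7 mice of each genotype and was pooled, so every group is 1 library. No comparison of genotypes could be checked in replicates, and the intervals given cover only counting error. Testis and corpus were collected directly, whereas caput and cauda were first punctured and incubated so that spermatozoa could leave.

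In mammals, piRNAs bind PIWI proteins of the Argonaute family and are made mainly in male germ cells. Long single-stranded precursors are cut into successive pieces that usually begin with U, and in adult testis most come from non-coding loci active in pachytene spermatocytes and round spermatids. Some mRNAs also feed the pathway, and reads antisense to an mRNA can come from a precursor that crosses the gene or a copy of it on the other strand. PIWI proteins can also cut a target opposite a piRNA, which leaves pairs of opposite-strand piRNAs whose 5′ ends overlap by 10 nt and gives the partner an A at position 10.

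The sequences below are the most abundant reads without a mismatch, of at most 30 nt, that were assigned to RefSeq entries of the genes that head the results. They are written as sequenced, 5′ to 3′, with the first base in capitals, and they are reads of these libraries, named from RefSeq. The first 8 lie on the plus (mRNA) strand and the last 2 on the minus (antisense) strand.
Gm5878, chromosome 6: Taccatagaagacgagtttggactgagcga
Nemp1, chromosome 10: Tatgggcccctggaaaatgaacgaagcatt
1700006A11Rik, chromosome 3: Taagagaaaagcttgactctgcagaggaaa
Tbl2, chromosome 5: Tagatgctggcactgtactttgcaaggagg
Asb1, chromosome 1: Taggaagttgatgtgacttcggtgaggact
Wdfy3, chromosome 5: Tgtaaacggcctgaagaattcctatctag
Ddx19b, chromosome 8: Tagaaccaggattctgctcacttgcc
Ago2, chromosome 15: Taggaatggactgtgcccgaggacctgacc
Stox1, chromosome 10: Taaacacagagaactgcagcccccgtcatc
Spin1, chromosome 13: Taagatacagggaaggattcacaggcacc

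The 1700006A11Rik read was counted 2970 times in WT testis and 4349 times in KO testis, 898 times in WT caput and 5 times in KO caput at 13 months. The Gm5878 read was counted 954 and 1192 times in WT and KO testis, 430 times in WT caput and 4 times in KO caput. The Stox1 read, from the antisense strand, was counted 620 and 896 times in WT and KO testis, 323 times in WT caput and 2 times in KO caput. These single sequences already show the order found for the whole set, with both testis libraries highest, WT caput next and KO caput at a few reads.

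In RPM, the reads of a kind for every 1000000 classified reads, mRNA piRNA-like reads amounted to 58413 RPM in WT testis and 55860 RPM in KO testis, which is 5.84% (95% Clopper-Pearson interval 5.83 to 5.86) and 5.59% of the classified reads. WT caput at 13 months held 15744 RPM (1.57%, 1.57 to 1.58). KO caput at 13 months held 444 RPM, WT corpus 405, KO corpus 1094, WT cauda 482, KO cauda 588, WT caput at 2 months 80.9 and KO caput at 2 months 99.8. WT caput at 13 months was thus the only epididymal library of the 8 within 10-fold of testis, at 0.270 of the WT testis share (0.268 to 0.271). The KO caput share was 0.0282 of the WT caput share at 13 months (0.0276 to 0.0289), a 35.4-fold lower level. The remaining KO over WT ratios were 0.956 (0.953 to 0.960) in testis, 2.70 (2.62 to 2.77) in corpus, 1.22 (1.18 to 1.26) in cauda and 1.23 (1.08 to 1.41) in caput at 2 months, the last from 312 and 766 reads. Their direction turned, on the log2 scale, with any first base in testis (0.033), per mRNA read in cauda (-0.37) and at 26 to 31 nt in caput at 2 months (-0.10), and the corpus value of 1.43 was 0.57 with any first base. The caput value at 13 months was -5.15 and lay between -6.30 and -3.12 under the alternatives. In pooled tissue, fewer cells of a type and less RNA per cell cannot be told apart.

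**Figure D1:**
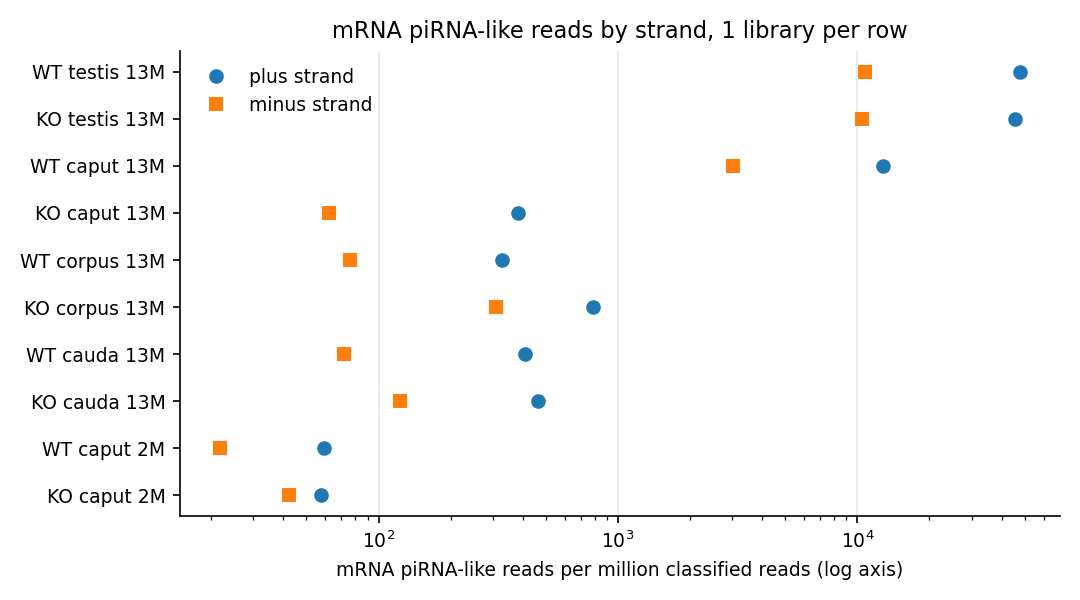
RPM (horizontal, log axis) of mRNA piRNA-like reads on the plus and minus strand of the mRNA, 1 library per row and 1 point per strand. On the plus strand both testis libraries lie at 47649 and 45459 RPM and WT caput at 12733 RPM, while the other 13-month libraries lie between 329 and 785 RPM.

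The classified reads behind these values numbered 8567091 in WT testis and 9834580 in KO testis, 13825045 and 18362642 in WT and KO caput, and between 3855476 and 29049669 in the other libraries. In the caput transcriptome at 13 months, the Gpx5 transcript was at 8474 reads per kilobase of transcript and 1000000 mapped reads (RPKM) in WT and 918 RPKM in KO. The RefSeq entry of Gpx5 held 59 of the piRNA-like reads in WT caput, 2 in KO caput and 0 in the other libraries. The caput libraries contained the markers of their tissue in both genotypes, among them Lcn5 (770 and 2294 RPKM in WT and KO), Lcn8 (1162 and 2259 RPKM) and Adam7 (2383 and 6373 RPKM). Of 31 caput secretory genes with a transcript value, 23 were at least 2-fold higher in KO on the log2(RPKM + 1) scale and 1 was lower. Their summed level was 32708 RPKM in WT and 57339 RPKM in KO.

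Transcripts of testis cells differed between the caput transcriptomes in the same direction as the piRNA-like reads. Of 10229 genes with member reads and 1 RPKM or more, 2120 were at least 2-fold lower in KO (20.7%) and 208 at least 2-fold higher on the log2(RPKM + 1) scale. Of 30 spermatid and sperm genes all 30 were at least 2-fold lower in KO, and their summed level was 14686 RPKM in WT and 251 RPKM in KO. Prm1, a protamine of the sperm nucleus, was at 2090 and 24.4 RPKM. Of 20 spermatogonial and spermatocyte genes 17 were at least 2-fold lower, with sums of 338 and 15.3 RPKM. Of 7 Leydig cell genes, which mark the steroid-making cells of the testis interstitium, 6 were at least 2-fold lower, with sums of 363 and 11.9 RPKM, and Insl3 was at 219 and 1.47 RPKM. Of 9 Sertoli cell genes 5 were at least 2-fold lower and 0 at least 2-fold higher, although their sum, 1567 and 2972 RPKM, is mostly Clu, which the caput also makes. No member of the spermatid list was at 0 in KO, where its levels ran from 0.240 to 51.7 RPKM. The part of these cells in the small RNA difference was not tested.

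The reads of an mRNA are spread over several entries, because a sequence shared by several database entries of a gene is listed under only 1 of them, and not always the same one. Of the reads of WT testis whose sequence KO testis also lists, 60.9% stood under the same entry there, 37.2% under another mRNA entry and 1.95% in another class. The Tbl2 read above, for example, stood under its RefSeq entry in some libraries and under GenBank entry BC039273 in others. Entries were therefore also summed into linked groups, where at least 3 sequences, and 30% of those of the smaller entry that more than 1 library listed, stood under both. This gave 38227 groups, of which 1216 hold 2 or more entries and none more than 9. A group is named below after its RefSeq gene, and its values are sums over its entries.

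In testis, the reads were concentrated in few transcripts. Of the 26128 entries with a read in WT testis, 111 held 50% of the reads, and the corresponding numbers were 104 of 26950 in KO testis and 128 of 20794 in WT caput. As linked groups these numbers were 57, 54 and 64. The 10 leading groups supplied 30.5% of the reads in WT testis, 31.3% in KO testis and 29.4% in WT caput. Outside these libraries 50% of the reads took 378 entries in KO caput, 207 in WT corpus, 89 in KO corpus, 570 in WT cauda, 250 in KO cauda, and 56 and 49 in WT and KO caput at 2 months. RefSeq entries, which alone could be paired with a gene symbol, held 49.7% of the reads in WT testis, 52.0% in KO testis and 50.2% in WT caput.

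The leading source was Gm5878, a predicted gene. Its reads stood at 3317 RPM in WT testis, 3440 in KO testis, 820 in WT caput, 7.13 in KO caput, 14.9 in WT corpus, 33.9 in KO corpus, 6.69 in WT cauda, 9.52 in KO cauda, 0.778 in WT caput at 2 months and 0.391 in KO caput at 2 months. Nemp1, which encodes a protein of the inner nuclear membrane, followed at 3207, 2946, 885, 9.37, 13.7, 41.0, 7.49, 9.87, 2.33 and 1.30 RPM in the same order of libraries. Gm5878 was the higher of this pair in both testis libraries and in WT corpus, and Nemp1 in all the other libraries. 1700006A11Rik stood at 2506 and 2548 RPM in WT and KO testis, 618 and 6.10 RPM in WT and KO caput, 13.6 and 23.1 RPM in WT and KO corpus and 3.83 and 8.21 RPM in WT and KO cauda. All 3 gave reads of the mRNA strand almost alone, with minus-strand shares in testis of 0.0193%, 0.00177% and 0%.

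Further plus-strand sources had a wide range of known roles. Tbl2, a WD-repeat protein of the endoplasmic reticulum, stood at 1870 RPM in WT testis, 1664 in KO testis, 469 in WT caput and 3.32 in KO caput. Asb1, an ankyrin-repeat protein with a SOCS box, stood at 1365, 1353, 378 and 2.83 RPM in these libraries. Wdfy3, a scaffold of selective autophagy, stood at 1121, 1018, 213 and 2.07 RPM. The KO caput value was about 1 in 100 or less of the WT caput value in each of these.

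RNA-binding and regulatory proteins were also among the leading sources. The group of Ddx19b and Ddx19a, near-identical DEAD-box helicases of mRNA export whose reads the tables may split, stood at 973 RPM in WT testis, 890 in KO testis, 206 in WT caput and 1.74 in KO caput. Ago2, the slicing Argonaute of the miRNA pathway, stood at 506, 464, 137 and 1.31 RPM, with 4.96% of its testis reads on the minus strand. Nr2c2, an orphan nuclear receptor, stood at 421, 456, 146 and 1.91 RPM. Lower in the order were Rc3h1, the RNA-binding protein roquin-1, at 249 and 239 RPM in WT and KO testis, and Strbp, a spermatid RNA-binding protein, at 239 and 252 RPM.

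A smaller set of genes gave reads from the antisense strand. Stox1, a winged-helix transcription factor, stood at 970 RPM in WT testis, 1125 in KO testis, 319 in WT caput and 2.94 in KO caput, and 99.2% of its testis reads were on the minus strand. Spin1, a reader of histone methylation, stood at 707, 737, 307 and 2.18 RPM, with 97.2% on the minus strand. Hrnr, an epidermal S100 fused-type protein, stood at 234, 252, 65.5 and 0.327 RPM, with 100% on the minus strand. Ccnq, a cyclin, had 96.1% and Unc119b, a lipid-binding trafficking protein, 87.1% on the minus strand. Among the 30 groups with the most testis reads, 19 had at most 10% of them on the minus strand, 5 had at least 90% and 6 lay between.

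**Figure D2:**
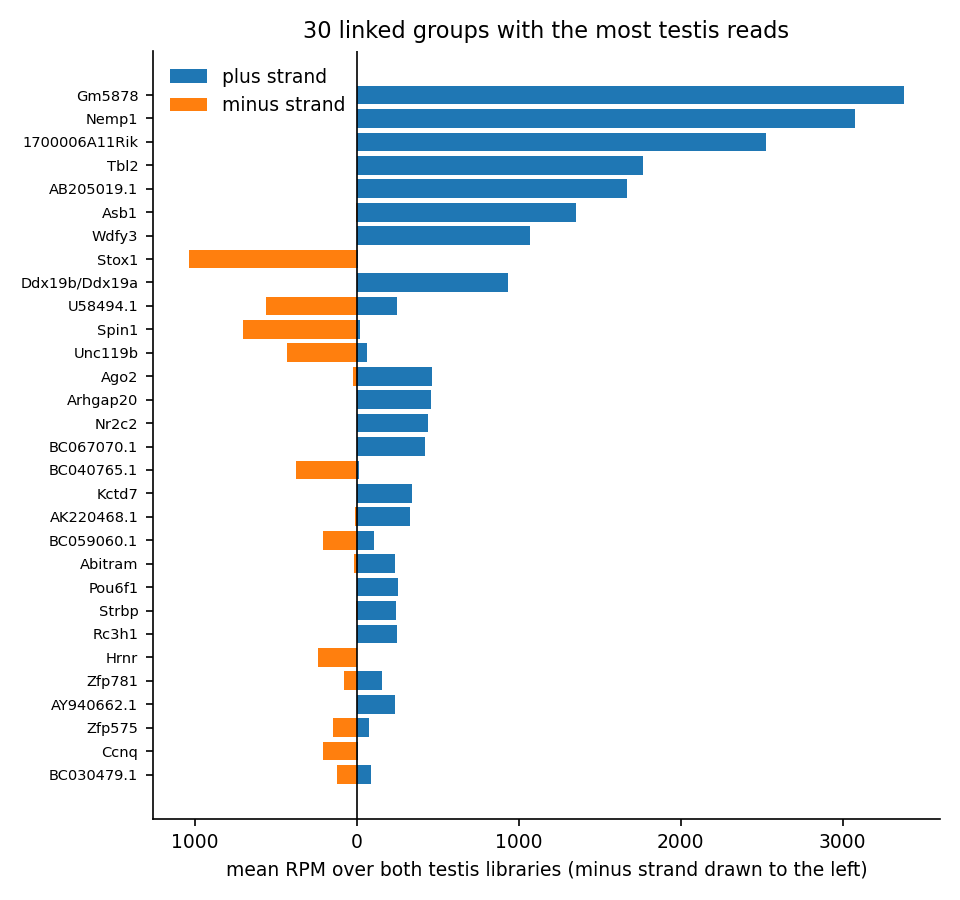
Mean RPM over both testis libraries (horizontal) for the 30 linked groups with the most testis reads, plus strand drawn to the right of 0 and minus strand to the left. Most groups have bars on 1 side only: Gm5878 and Nemp1 to the right, Stox1, Spin1 and Hrnr to the left, and GenBank entry U58494, with 69.5% on the minus strand, on both.

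The strand of a group was mostly the same in testis and WT caput. Of 607 groups with at least 10 RPM in WT testis, 427 had at most 10% minus-strand reads, 54 had at least 90% and 126 were mixed. Of 171 groups with at least 10 RPM in both testis libraries and in WT caput, 165 (96.5%) fell in the same class of the 3 in each of them. In all, the minus strand held 18.4% of the reads in WT testis, 18.6% in KO testis, 19.1% in WT caput, 13.9% in KO caput, 18.8% in WT corpus, 28.2% in KO corpus, 14.8% in WT cauda, 20.9% in KO cauda, and 26.9% and 42.4% in WT and KO caput at 2 months. Minus-strand reads matched their entry less exactly: 35.4% of them in WT testis had no mismatch, against 71.2% of plus-strand reads, and in WT caput the shares were 36.1% and 72.0%. Without reads that have a mismatch, the minus-strand share was 10.1% in WT testis and 10.6% in WT caput, and in KO corpus 8.80%. Spin1, Unc119b and Ccnq were among the groups with few exact reads, at 38.2%, 39.0% and 32.8% of their testis reads, whereas Hrnr was at 76.7% and Stox1 at 65.8%.

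Between WT and KO testis the individual sources differed little once entries were linked. By single entry, 62 of 713 entries with at least 10 RPM in a testis library were at least 2-fold lower in KO (8.70%) and 57 at least 2-fold higher (7.99%). By linked group these numbers were 21 (3.23%) and 15 (2.30%) of 651. Myo1c, an unconventional myosin, shows the difference. Its RefSeq entry had 1.75 RPM in WT testis and 171 RPM in KO testis, GenBank entry BC021481 had 151 and 1.02 RPM, and the group that holds both had 157 and 179 RPM. Of the testis reads of this group 98.7% were on the minus strand, 95.2% were a single sequence and only 0.936% had no mismatch. Over 530 groups with at least 10 RPM in both testis libraries the median KO over WT ratio was 0.959, with an interquartile range of 0.843 to 1.09. Among the 30 leading groups the ratio ran from 0.735 (GenBank entry AK220468) to 1.16 (Stox1).

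A few groups were still at least 2-fold apart between the testis libraries. Gpr160, an orphan G protein-coupled receptor, stood at 141 RPM in WT testis and 66.4 RPM in KO testis. Bud23, an rRNA methyltransferase, stood at 54.2 and 20.7 RPM. In the other direction GenBank entry BC064076 stood at 26.7 and 146 RPM, with 71.9% of its testis reads in a single sequence and 0.0600% without a mismatch. Mif, a cytokine read here 98.5% on the minus strand, stood at 17.7 and 104 RPM by its RefSeq entry but at 154 and 228 RPM as a group.

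The groups that fed testis also fed WT caput, at nearly the same relative levels. Of the 30 leading groups of testis, 27 were among the 30 leading groups of WT caput. Over the 530 groups the median WT caput over WT testis ratio was 0.254, with an interquartile range of 0.219 to 0.297, and for single entries it was 0.250 (0.204 to 0.313, n = 500). The range of caput ratios was about as narrow as that between the testis libraries: the upper quartile was 1.36 times the lower for WT caput and 1.29 times for KO testis. The Pearson correlation of log2(RPM + 1) with WT testis was 0.961 for WT caput and 0.966 for KO testis over these groups, as a description, since groups share libraries and depth. At the level of single sequences, counted in whatever class a library lists them, WT caput listed all 129 that had at least 20 RPM in both testis libraries. Their median WT caput over WT testis ratio was 0.220 (interquartile range 0.182 to 0.266).

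**Figure D3:**
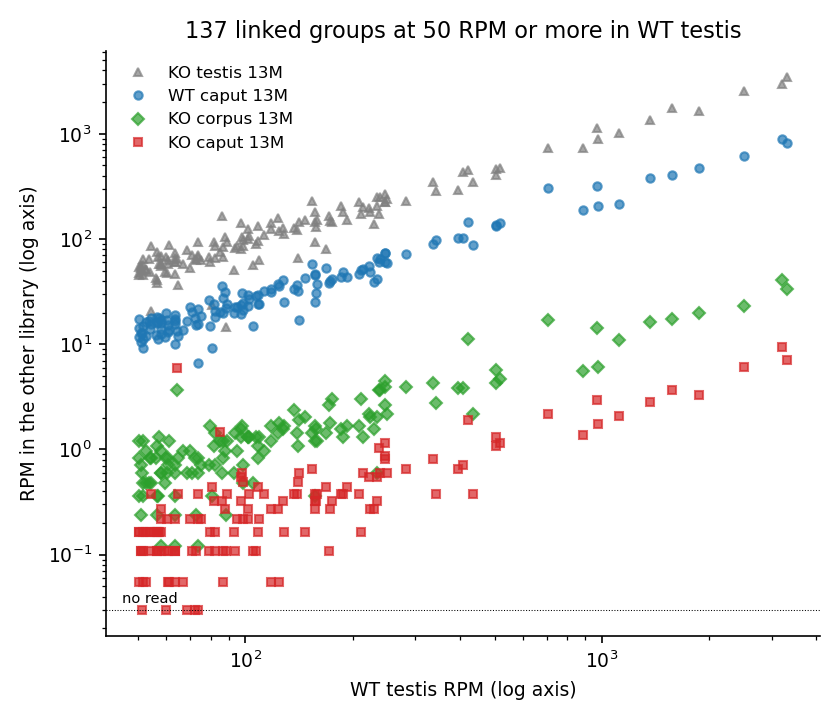
RPM in KO testis, WT caput, KO corpus and KO caput at 13 months (vertical, log axis) against WT testis (horizontal, log axis), 1 point per linked group and library for the 137 groups with at least 50 RPM in WT testis. Each library forms a band, with KO testis at the level of WT testis, WT caput at about 0.25 of it, KO corpus at about 0.01 and KO caput at about 0.002, and groups with no read are drawn on the dotted line.

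Among groups with at least 50 RPM in WT testis, Spin1 had the highest caput ratio and Trav3-3 the lowest. Spin1 in WT caput was at 43.4% of its WT testis level, Nr2c2 at 34.5% and Stox1 at 32.9%, against 24.7% for Gm5878, 19.0% for Wdfy3 and 21.2% for the Ddx19b group. Trav3-3, a T cell receptor segment, stood at 73.7 RPM in WT testis, 71.0 in KO testis and 6.65 in WT caput, with 64.0% of its testis reads in a single sequence. Ubap1, a subunit of an endosomal sorting complex, stood at 142, 147 and 17.1 RPM.

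In KO caput these sources were present at trace levels. Of 177 entries with at least 10 RPM in a caput library at 13 months, 177 were at least 2-fold lower in KO (100%) and 0 at least 2-fold higher (0%), and by linked group 172 of 173 were lower (99.4%). The exception was the group of GenBank entry BC020459, with 33.3 RPM in WT caput and 17.8 RPM in KO caput, where 96.0% of its reads shared 18 nt with reads of the rRNA class. For mRNA reads without the piRNA features the same count was 115 of 174 entries lower (66.1%) and 21 higher (12.1%). Of the 177 member entries 176, and of the 173 groups 171, reached 10 RPM in WT caput alone, so these counts follow from the filter and from the low total of KO caput. Among the 30 leading groups the WT over KO caput ratio ran from 52.6 (Zfp781) to 259 (GenBank entry BC059060), with a median of 111. Over the 530 groups the KO caput level was a median 0.00248 of WT testis, and 137 of these groups had no read in KO caput.

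What remained in KO caput was less like the testis set. The 3103 groups with a testis mean of at least 1 RPM supplied 89.4% of the reads in both testis libraries and 86.6% in WT caput, but 54.2% in KO caput (53.2 to 55.3). Their WT over KO caput ratio was 56.6, against 10.4 for the other groups. Reads that share 18 nt with a read of the rRNA class made up 17.9% of the KO caput reads and 2.26% of the WT caput reads. In KO caput they lay mostly within the groups with a testis mean of at least 1 RPM. They were 30.9% of the reads of those groups and 2.41% of the reads of the other groups. The group of GenBank entry BC020277 led KO caput at 37.4 RPM, and 99.6% of its reads there shared 18 nt with rRNA reads. It stood at 92.0 RPM in WT caput, 41.3 and 85.4 RPM in WT and KO testis, 10.8 and 36.1 RPM in WT and KO corpus and 38.5 and 46.8 RPM in WT and KO cauda. Its level in WT caput was thus above that of both testis libraries, unlike the 30 leading groups of testis.

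Corpus and cauda held most of these groups, at much lower levels. Of the 530 groups 52 had no read in WT corpus, 66 in KO corpus, 173 in WT cauda and 170 in KO cauda. Relative to WT testis, the 530 groups had a median of 0.00434 in WT corpus, 0.0101 in KO corpus, 0.00218 in WT cauda and 0.00297 in KO cauda. In corpus 12 of 15 groups with at least 10 RPM in a library were at least 2-fold higher in KO (80%) and 0 lower (0%), and by single entry 11 of 13 were higher (84.6%). Of the 15 groups 11, and of the 13 entries 10, reached 10 RPM in KO corpus alone, so these counts too follow in part from the filter. Among mRNA entries read without the piRNA features, 44 of 124 were higher in KO corpus (35.5%) and 36 lower (29%). Nemp1 stood at 13.7 RPM in WT corpus and 41.0 in KO corpus, Tbl2 at 5.30 and 19.7, and Spin1 at 3.82 and 17.0. In cauda only 5 groups reached 10 RPM, of which 2 were higher (40%) and 0 lower (0%). By single entry 2 of 4 were higher (50%) and 1 lower (25%). Of the 5 groups 3 reached 10 RPM in KO cauda alone and 0 in WT cauda alone. Of the 4 entries 2 did so in KO cauda alone and 1 in WT cauda alone, so the filter bears on these counts as well. Without the piRNA features 54 of 104 cauda entries were higher in KO (51.9%). At 2 months no entry reached 10 RPM in caput, and 474 and 466 of the 530 groups had no read in WT and KO. Among mRNA reads without the piRNA features, 8 of 17 entries were higher in KO caput at 2 months (47.1%).

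Rtl1 led KO corpus, with reads of another kind. Rtl1 is an imprinted gene derived from a retrotransposon, and miRNAs of the opposite strand, miR-127 among them, overlap it in antisense. The Rtl1 group stood at 0.233 RPM in WT testis, 0.203 in KO testis, 0.289 in WT caput, 0.218 in KO caput, 0.0344 in WT corpus, 152 in KO corpus, 0.304 in WT cauda, 42.5 in KO cauda, 7.78 in WT caput at 2 months and 14.3 in KO caput at 2 months. High values thus occurred in KO corpus, KO cauda and both 2-month libraries, and 100% of the reads were on the minus strand. The most abundant of them equal mature miR-127-3p (chromosome 12; RefSeq, GRCm38.p6) followed by bases that are not in it, shown in capitals below, which brought the miRNA to the 24 nt minimum. A like case is GenBank entry BC021524, whose reads begin as miR-140-3p (chromosome 8).
miR-127-3p, mature: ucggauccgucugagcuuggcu
Rtl1 group, read: tcggatccgtctgagcttggctAT
Rtl1 group, read: tcggatccgtctgagcttggctTT
miR-140-3p, mature: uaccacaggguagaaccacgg
BC021524, read: taccacagggtagaaccacggACT
BC021524, read: taccacagggtagaaccacggAAA

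The first Rtl1 read was counted 415 times in KO corpus, 135 times in KO cauda, 0 times in WT corpus and 0 times in WT cauda. The first BC021524 read stood under an mRNA entry with 309 reads in KO testis, 409 in WT caput and 112 in KO corpus. The same sequence was listed in another class, and so was no member, in WT testis (215 reads), KO caput (302 reads) and KO cauda (115 reads), so levels of such reads between libraries also depend on the class the tables chose. In all, reads that begin with the first 18 nt of a mature miRNA made up 16.3% of the KO corpus reads, 8.19% in KO cauda, 10.9% and 16.6% in WT and KO caput at 2 months, and 0.0234% in WT testis and 0.357% in WT caput. Without them the KO over WT log2 ratio of the whole set was 1.19 in corpus in place of 1.43 and 0.18 in cauda in place of 0.29. In corpus, groups with a testis mean of at least 1 RPM held 291 RPM in WT against 696 RPM in KO, a ratio of 2.39 (2.31 to 2.47).

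Length, which the rule limited only to 24 to 32 nt, separated the libraries in the same way. The most frequent length was 30 nt in WT testis (27.8% of the reads), KO testis (29.1%) and WT caput (28.3%), and lengths of 29 to 31 nt together made up 64.6%, 68.4% and 66.0%. A length of 30 nt also led elsewhere, by smaller shares, except in KO cauda and KO caput at 2 months, where 24 nt led. In KO caput 30 nt reads were 15.0% and 29 to 31 nt reads 38.4%, and 24 nt reads, at the lower limit, were 12.5%, against 1.92% in WT caput. KO corpus held 19.5% of 24 nt reads and 46.4% of 29 to 31 nt reads, and WT corpus 8.96% and 50.3%. Within KO corpus, groups with a testis mean of at least 1 RPM had 7.25% at 24 nt and 60.4% at 29 to 31 nt. The other groups there had 41.1% and 21.8%. Within KO caput, the groups with a testis mean of at least 1 RPM had 44.5% of reads at 29 to 31 nt and the other groups 31.1%. In WT testis 64.5% of plus-strand and 64.8% of minus-strand reads were 29 to 31 nt long.

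**Figure D4:**
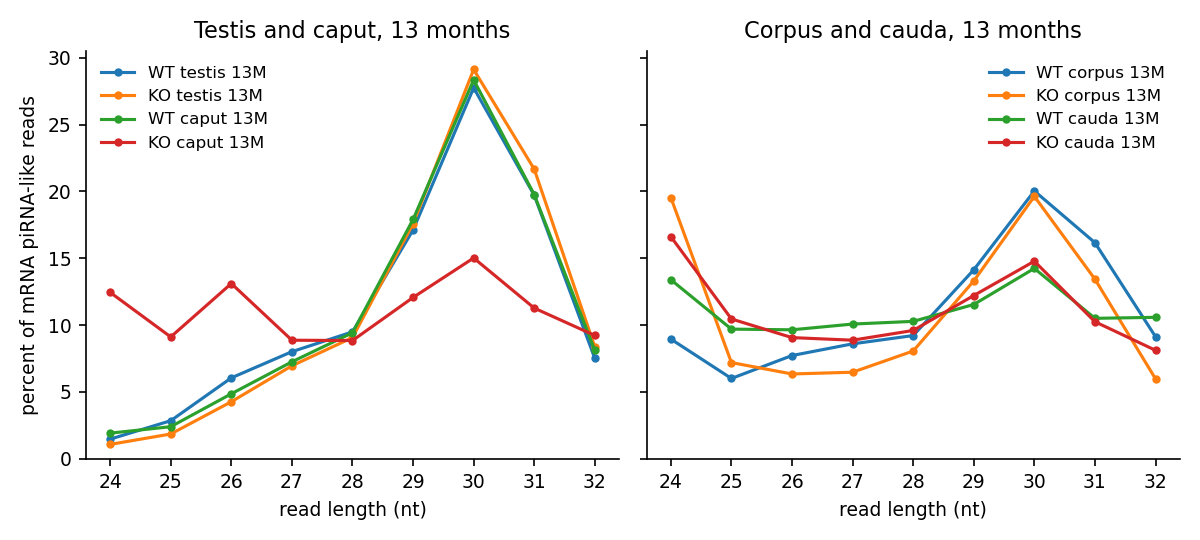
Percent of mRNA piRNA-like reads (vertical) at each length from 24 to 32 nt (horizontal), 1 line per library. WT testis, KO testis and WT caput share a peak at 30 nt of 27.8% to 29.1%, while KO caput, corpus and cauda are flatter and hold more reads at 24 nt.

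The share of all mRNA reads of 24 to 32 nt that began with T, which any fragment could do, gives the background for the rule. It was 72.2% in WT testis, 67.5% in KO testis and 67.3% in WT caput. In the other 13-month libraries it was 18.8% in KO caput, 20.8% in WT corpus, 37.9% in KO corpus, 19.5% in WT cauda and 18.1% in KO cauda, and A was the most frequent first base in KO caput at 41.4%. The members were 60.0% of all mRNA reads in WT testis, 56.0% in KO testis, 45.7% in WT caput and between 4.08% and 9.34% elsewhere. The piRNA class of the tables, 24 to 32 nt long and starting with T, had KO over WT ratios of 0.961 in testis, 0.0201 in caput, 2.19 in corpus and 1.41 in cauda at 13 months, beside 0.956, 0.0282, 2.70 and 1.22 for the mRNA members. In caput at 2 months the directions differed, with 0.577 (0.542 to 0.613) for the piRNA class and 1.23 (1.08 to 1.41) for the mRNA members. Of the member reads, 32.2% in WT testis and 32.4% in KO testis had 18 nt in common with a read of the piRNA class.

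In every 13-month library, single mismatches lay mostly at the ends of the reads. Positions other than the first and the last pair of bases held between 16.6% (WT cauda) and 28.4% (WT caput) of them. Among reads with a single mismatch in WT testis, 47.7% had it at the last base and 25.5% at the first, and in WT caput 48.4% and 19.3%. In WT corpus and WT cauda the first base led, with 54.7% and 67.1%. Reads whose only mismatch is the first T were 16.5% and 14.8% of the members there, against 6.07% in WT testis. At 2 months 62.0% and 63.7% of single mismatches in WT and KO caput lay at neither the first base nor the last pair of bases. The mismatched last base was T in 88.5% of these reads in WT testis and 88.7% in WT caput. A 3′ end extended by U is known for small RNAs of several classes. Whether these T bases were added in the cell or arose in library making, trimming or sequencing was not tested.

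Plus and minus reads of the same group overlapped most often by 10 nt. Pairs of distinct sequences whose 5′ ends are complementary over their first k bases were counted within each group for k from 9 to 24. In WT testis 2788 pairs overlapped by 10 nt, against 979 at the next highest length and a median of 597 at the other lengths. In KO testis 2404 pairs overlapped by 10 nt, against a median of 561, and in WT caput 1482 against 228. With reads without a mismatch alone the 10 nt pairs numbered 438, 324 and 264, against medians of 149, 130 and 61.

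**Figure D5:**
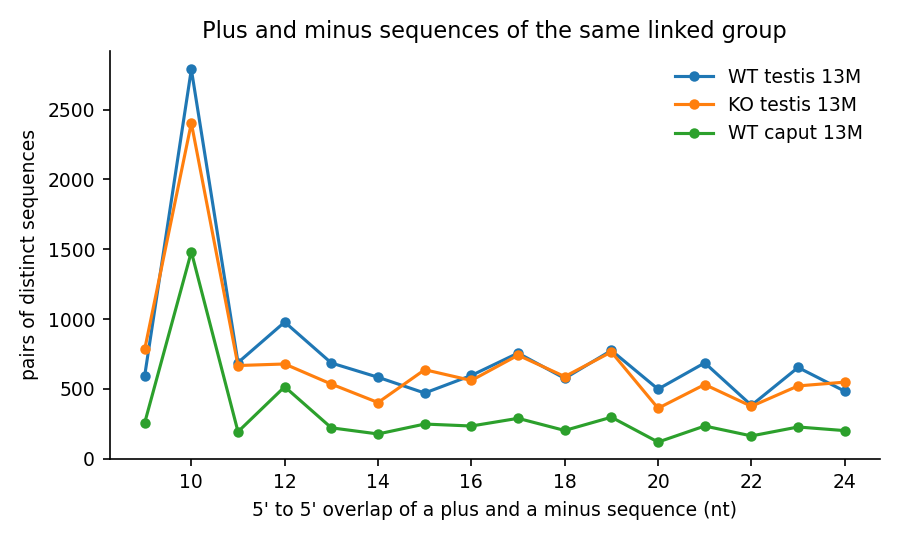
Number of pairs of distinct sequences (vertical) by the length of their 5′ to 5′ overlap in nt (horizontal), plus against minus strand within the same linked group, 1 line per library. The 10 nt overlap stands out in all 3 libraries, with 2788, 2404 and 1482 pairs in WT testis, KO testis and WT caput.

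The 10 nt pairs were spread over 150 groups in WT testis, and the leading group, GenBank entry U58494, held 27.9% of them. Of its sequences 105 were also listed under GenBank entry BC030479, which is a separate group. Unc119b held 8.11% in WT testis, 7.11% in KO testis and 9.72% in WT caput. Synj2bp, a mitochondrial outer membrane protein, held 4.20%, 4.08% and 6.41%, and 66.1% of its WT testis reads were on the minus strand. A pair of Stox1 (chromosome 10) that all 3 libraries list on both strands is printed to show the overlap, with the 10 complementary bases in capitals. The plus read was counted 1 time in WT testis, 3 times in KO testis and 3 times in WT caput. The minus read, which has 1 mismatch to the entry, was counted 8, 10 and 1 times, so the pair counts distinct sequences of low abundance.
Stox1, plus: TCATTTGGGAacaccagccatgaca
Stox1, minus: TCCCAAATGAttccacgtgcctccacctgt

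In both testis libraries and WT caput at 13 months, an A at position 10 was more frequent on the minus than on the plus strand. Among distinct minus-strand sequences of WT testis 34.8% (34.2 to 35.3) had A there, against 28.7% on average over positions 2 to 22, and among plus-strand sequences 30.7% (30.4 to 30.9) against 30.2%. In WT caput the minus-strand share was 33.6% (32.8 to 34.3) against an average of 27.9%. Position 10 was not the highest on the minus strand, since another position reached 37.9% in WT testis. In KO caput 29.9% of 738 minus-strand sequences (26.7 to 33.4) had A there, against an average of 26.4%.

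In caput, piRNA-like reads were set beside the level of the transcript of the same gene. Reads per gene count RefSeq entries alone, here and in the gene lists below, since GenBank entries had no symbol. The gap can be large: Zfp781 had 0.145 RPM in WT caput by its RefSeq entry and 60.2 RPM as a linked group. The genes were not split by the strand of their reads. Of 80 genes with at least 10 RPM of members in WT caput and a transcript value, the median transcript level was 7.50 RPKM in WT and 5.49 RPKM in KO, with a WT range of 0.163 to 54.3 RPKM. Across these genes Spearman's rho of RPM with WT RPKM was 0.0887, a description across genes of 1 library pair. By transcript, 19 of the 80 were at least 2-fold lower on the log2(RPKM + 1) scale (23.8%), beside 20.7% of the 10229 genes, and 0 were higher.

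Some leading genes had a transcript at like levels in both caput libraries. Ago2 was at 4.82 RPKM in WT and 4.67 RPKM in KO, Unc119b at 17.0 and 25.3 RPKM and Wdfy3 at 9.25 and 7.55 RPKM. Others were far lower in KO, such as 1700006A11Rik at 36.5 and 0.0362 RPKM, Gm5878 at 13.7 and 0.0464 RPKM and Stox1 at 12.1 and 0.903 RPKM. Reads of Unc119b and Stox1 were mostly antisense, with 87.1% and 99.2% of testis reads on the minus strand. For these 2 genes the transcript level need not be that of the precursor. Of the 100 most abundant transcripts of WT caput, among them the non-coding Rpph1 and Rmrp, 0 had 10 RPM of members there. For 100 genes this is near the share over all genes with a symbol and a read, 81 of 11573 (0.700%). Together the 100 gave 0.245% of the member reads. Prm1, Prm2 and Tnp1, at 2090, 2745 and 2329 RPKM in WT caput, had 0 member reads there under their RefSeq entries.

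Genes of the caput epithelium gave few reads, and mainly in the epididymis. By RefSeq entries, the 32 caput secretory genes summed to 1.63 RPM in WT testis, 13.8 RPM in WT caput, 5.06 RPM in KO caput and 4.87 RPM in WT cauda. Gpx5 stood at 4.27 RPM in WT caput and 0.109 RPM in KO caput, Adam7, a protease-like protein of the caput, at 3.04 and 1.09 RPM, and Lcn5, a lipocalin that binds retinoids, at 0.868 and 1.25 RPM. Crisp1, a secreted protein that coats sperm, stood as a linked group at 7.85 RPM in WT cauda and 2.79 RPM in KO cauda, and had no read in testis. All Gpx5, Adam7 and Crisp1 reads were on the plus strand. Crisp1 was chosen after its values were seen.

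Genes of the piRNA pathway and of the testis cell lists held few of the reads, although the piRNA pathway list lay above all genes. Of 23 piRNA pathway genes 21 had a member read, and 2 reached 10 RPM in a testis library, against 323 of all 11573 genes with a symbol and a read (2.79%). These were Henmt1, which methylates the 3′ end of piRNAs, at 16.3 RPM in WT testis, 16.6 in KO testis, 3.18 in WT caput and 0.0545 in KO caput, and Piwil2, a PIWI protein, at 7.47, 11.2, 2.68 and 0 RPM. The median testis level over the list was 0.582 RPM, beside 0.168 RPM over all genes with a symbol and a read. Of 30 spermatid genes 24 had a read and none reached 10 RPM, which for so short a list is near the 2.79% of all genes. Their sum was 7.24 RPM in WT testis, led by Ldhc, the testis lactate dehydrogenase, at 3.03 RPM. Of 20 spermatogonial and spermatocyte genes 16 had a read, with a sum of 9.69 RPM, led by Stag3, a meiotic cohesin subunit, at 2.57 RPM. Of 7 Leydig cell genes only Star, which moves cholesterol into mitochondria, had reads under a RefSeq entry, at 6.77 RPM in WT testis and 0.796 RPM in WT caput. Of 10 Sertoli cell genes 3 and of 8 blood cell genes 3 had a read, none above 1 RPM in a library. No read stood under a named entry of the 27 ribosomal protein genes. The share of all genes with a read was not counted, so these numbers of genes with a read have no background.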

How the data were processed

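Small RNA libraries of 18 to 40 nt were made with the TruSeq small RNA protocol, per the labels' protocols. The deposited files give read counts per distinct sequence, its matched entry, strand and up to 2 mismatches. TopHat2, Bowtie 0.12.7 and mm9 are named in the submitters' processing notes, and RPKM values were deposited by the authors with GFOLD 1.1.3, per the file headers. Other transcriptome columns deposited by the authors, the log2 fold changes and an E-FDR p-value, were not used here. Members were selected by class, length and first base, and values are RPM of classified reads. In the 2-month files 54 and 153 member reads (WT, KO) had counts turned into dates and were read back from the month. Ranks without a line, 36.7% to 69.6% of distinct sequences per 13-month file, were not used here. Counts of entries used at least 10 RPM in a library of a pair and a 2-fold ratio, with 3 counts in place of 0. A transcript ratio is on the log2(RPKM + 1) scale. Ratio intervals are exact conditional binomial intervals at 95%. The floor of 3 counts was 0.103 to 0.778 RPM. With 1 library per group no test between groups was possible. Genes were named through RefSeq accessions, which gave a symbol to 14502 of 14513 RefSeq entries. The files give no positions along an mRNA, so read positions were not analysed here, and overlaps were found from the sequences. The members, gene lists and thresholds were chosen with earlier results of these data known. Named genes were the 10 highest entries in testis and in WT caput, the 5 highest in each other tissue, on the minus strand and at each end of the caput over testis and KO over WT testis ratios at 50 RPM, and up to 4 per gene list; linked groups, and the groups they add, came after the data were seen. Python 3.11.15, pandas, numpy and scipy were used, and the functions were tested on simulated data.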

Additional observations from a re-analysis of the deposited data

Results flagged for a closer look

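The share of mRNA piRNA-like reads differed between KO and WT in opposite directions in neighbouring segments at 13 months. The log2 KO over WT ratio was -5.15 in caput and 1.43 in corpus, and the difference between these was not tested, since each rests on 1 library per genotype. In corpus the reads that begin as a miRNA numbered 4.41 RPM in the WT library against 178 RPM in the KO library, and the ratio of the set without them remained above 1.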

How the results depend on the processing

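No paired analysis was possible because each group is 1 library, and no replicate could be left out. The log2 KO over WT ratio of the share in testis, -0.06 as reported, was -0.10 per mRNA read, -0.056 at 26 to 31 nt, -0.073 without the 10 most abundant sequences, -0.043 without sequences of 1 read, -0.094 without reads that have a mismatch, -0.072 for distinct sequences at equal depth and 0.033 with any first base, which reverses it. In caput at 13 months (-5.15) these were -3.12, -5.49, -5.22, -6.30, -5.02, -4.39 and -3.31, and the ratio was -4.25 with miRNA reads out of the denominator, -5.18 without reads that begin as a miRNA and -5.40 without reads sharing 18 nt with rRNA. In corpus (1.43) it was 1.22 without miRNA in the denominator, 1.19 per mRNA read, 1.26 at 26 to 31 nt, 0.57 with any first base, 1.28 without the 10 sequences, 1.57 without sequences of 1 read, 1.19 without miRNA starts and 1.14 for distinct sequences. In cauda (0.29) it was 0.39 without miRNA in the denominator, -0.37 per mRNA read (reversed), 0.40 with any first base, 0.24 without the 10 sequences, 0.56 without sequences of 1 read, 0.24 without a mismatch, 0.18 without miRNA starts and 0.14 for distinct sequences. In caput at 2 months (0.30) it was -0.10 at 26 to 31 nt (reversed) and 1.28 without sequences of 1 read. The cause was not tested.

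The minus-strand share without reads that have a mismatch was 10.1% and 10.3% in WT and KO testis, 10.6% and 5.05% in WT and KO caput, 7.89% and 8.80% in corpus, 3.65% and 6.03% in cauda and 8.43% and 18.7% in caput at 2 months. Over distinct sequences it was 15.3%, 14.8%, 15.9%, 11.6%, 16.6%, 17.0%, 11.6% and 14.0% in the 13-month libraries in the same order, and 31.4% in KO caput at 2 months. Without the 10 most abundant sequences it was 19.0% and 19.2% in WT and KO testis, 18.5% in KO corpus, 13.6% and 16.4% in WT and KO cauda and 32.5% in KO caput at 2 months.

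Of 147 entries at 50 RPM, 8 were at least 2-fold lower and 8 higher in KO testis, and of 651 linked groups 21 and 15. In caput 35 of 35 entries were lower at 50 RPM and 107 of 107 without a mismatch. Relative to the median entry 22 of 177 were lower in caput and 11 higher. In corpus 2 of 2 were higher at 50 RPM and 5 of 13 relative to the median entry. In cauda 0 of 2 were lower without a mismatch and 0 of 5 as linked groups. There 1 of 4 was higher relative to the median entry and 1 of 2 without a mismatch, while none reached 50 RPM. Caput at 2 months had no entry to count. The median WT caput over WT testis ratio stayed between 0.249 and 0.261 under its alternatives.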

Other observations

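Lrrc3, which encodes a leucine-rich repeat protein, was read almost solely in WT caput. It stood at 6.08 RPM there, 0.350 RPM in WT testis, 0.407 RPM in KO testis and 0 RPM in KO caput, in 10 distinct sequences of which 97.8% of reads were on the minus strand. GenBank entry BC055883 stood at 9.91 RPM in WT caput and 0.109 RPM in KO caput, but also at 4.58 RPM in WT corpus, 0 RPM in KO corpus and 4.19 RPM in KO cauda. The Zfp781 group, of zinc-finger genes, stood at 8.34 RPM in KO caput at 2 months and 0 RPM in WT caput at 2 months, while its 13-month epididymal values lay between 1.14 and 4.43 RPM outside WT caput. These were chosen after their values were seen.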
